A study of Mus musculus with 2 samples.

Results

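Purinergic receptors and ectonucleotidases let microglia read nucleotides and adenosine outside the cell. In BV2 cells, 10 such genes were looked up on 1 array per medium: the ATP-gated channels P2rx4 and P2rx7, the G protein-coupled P2Y receptors P2ry2, P2ry6, P2ry12, P2ry13 and P2ry14, the adenosine receptors Adora2a and Adora3, and the ectonucleotidase Entpd1. They were chosen by name, with earlier results of these data known. A gene counted as measured when the annotation gave it a transcript cluster, a group of probes read together, under its symbol alone. This held for 8 of the 10 genes, out of 19938 genes measured in all. Adora2a had no cluster under its symbol in the annotation used here, and the cluster of Adora3 also carries the symbol Tmigd3, so neither adenosine receptor was analysed here.

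The cells are BV2, an immortalized line derived from mouse microglia, with no further genetic change or drug in either group. Both cultures were plated in DMEM/F12, a nutrient-rich mixture. On the next day the medium was exchanged for DMEM (high glucose) in one group and for fresh DMEM/F12 in the other, for 1 d according to the methods and for longer than 1 d according to the labels. Serum and antibiotics were in both media. Each group is 1 culture on 1 Affymetrix Mouse Gene 1.0 ST array, so every difference below compares these 2 arrays and carries no replicate error and no p-value. Values are log2 expression values as deposited, and a positive difference means a higher value in DMEM/F12.

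Extracellular ATP and ADP are danger and guidance signals for microglia, released by damaged or active neighbouring cells. P2X channels open on ATP and let in calcium, while P2Y receptors act through G proteins and respond to ATP, UTP, ADP, UDP or UDP-sugars depending on the subtype. Surface enzymes then shorten the signal: Entpd1 (CD39) degrades ATP and ADP to AMP, Nt5e (CD73) degrades AMP to adenosine, and adenosine deaminase removes adenosine. DMEM/F12 contains hypoxanthine, a purine base at the end of this chain, and the comparison asks which of these transcripts differ between cells in the 2 media.

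Among the 8 genes measured, the transcripts of both P2X receptors and of Entpd1 had higher values in DMEM/F12. Those of the 3 P2Y receptors above background among these 8 had lower values. P2X and P2Y receptors outside this choice are described further below. As a measure of background, the 95th percentile of 1248 clusters for genes of smell, pheromone and taste receptors was taken, separately per array (log2 value 4.15 for DMEM, 4.17 for DMEM/F12). Of the 8 genes, 6 were above background on both arrays, and P2ry12 and P2ry14 were below it on both. Over all genes, 66.3% were above background on at least 1 array. The differences were small. None of the 8 reached 1.5-fold, as did 1.66% of all genes. P2ry6 and Entpd1 differed by at least 0.322 on the log2 scale, which is 2 of 8, beside 13.7% of all genes, and 2 of the 6 above background, beside 12% of all genes above background. In DMEM/F12, 3 of the 8 had a higher value, 4 a lower value and 1 an equal value, where 47.2% of all genes were higher and 45.5% lower. The median difference was -0.06 over the 8 genes and 0.00 over all genes. With so few genes, these shares do not set the purinergic genes apart from the rest.

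**Figure D1:**
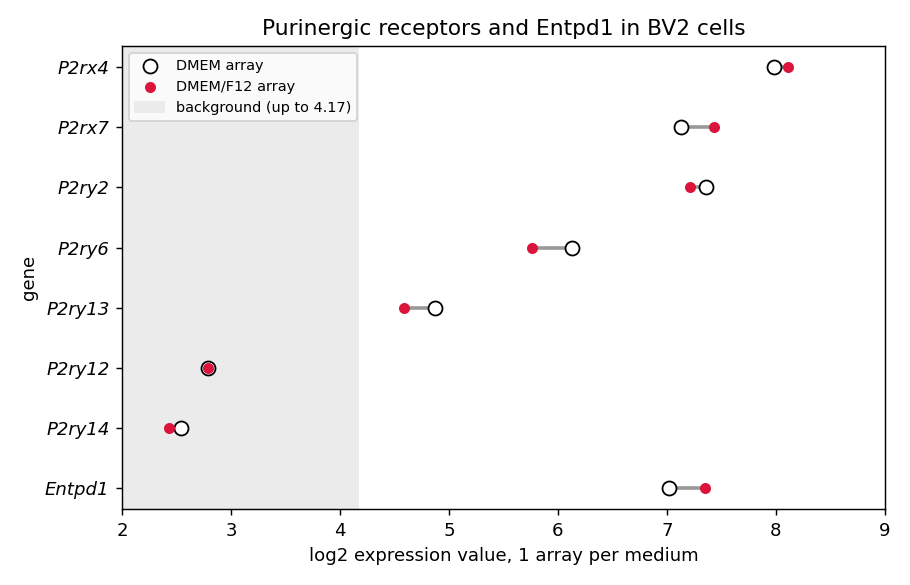
Log2 expression value (x axis) of each measured purinergic receptor gene and of Entpd1 (y axis) with open circles for DMEM, red circles for DMEM/F12, a line between both values of a gene and shading up to background in DMEM/F12 (4.17). The red circle lies to the right for P2rx4, P2rx7 and Entpd1, to the left for P2ry2, P2ry6, P2ry13 and P2ry14, and on the open circle for P2ry12.

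P2rx7 encodes the channel that opens at high ATP concentrations and drives inflammasome activation and interleukin-1 release in macrophages. The DMEM array gave a log2 value of 7.13 and the DMEM/F12 array 7.43, which is higher by 0.30 (1.23-fold). A difference of that size or larger in either direction was found for 17.5% of all genes. P2rx4 encodes a channel of higher ATP affinity that microglia raise after nerve injury. It read 7.98 on the DMEM array and 8.11 on the other, higher by 0.13 (1.09-fold), and 55.8% of all genes differed by at least as much. Both channels were thus higher on the DMEM/F12 array, P2rx4 by no more than is usual for these arrays.

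P2rx7 and P2rx4 are neighbours on mouse chromosome 5, with no other protein-coding gene starting between them in the RefSeq annotation of GRCm38.p6. Their promoters are shown here for comparison, each from 250 bases before to 50 after the outermost transcript start given by RefSeq. The P2rx7 promoter lies at chr5:122643677-122643976 and the P2rx4 promoter at chr5:122707294-122707593 (GRCm38.p6, plus strand for both). Capitals mark the PU.1 box GAGGAA on either strand, a sequence bound by the macrophage transcription factor PU.1.
P2rx7: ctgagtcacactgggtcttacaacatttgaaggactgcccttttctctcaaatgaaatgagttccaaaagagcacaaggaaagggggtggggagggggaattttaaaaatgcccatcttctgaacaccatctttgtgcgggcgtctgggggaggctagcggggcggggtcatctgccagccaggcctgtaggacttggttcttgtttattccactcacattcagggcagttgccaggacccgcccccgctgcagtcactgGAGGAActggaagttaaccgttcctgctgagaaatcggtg
P2rx4: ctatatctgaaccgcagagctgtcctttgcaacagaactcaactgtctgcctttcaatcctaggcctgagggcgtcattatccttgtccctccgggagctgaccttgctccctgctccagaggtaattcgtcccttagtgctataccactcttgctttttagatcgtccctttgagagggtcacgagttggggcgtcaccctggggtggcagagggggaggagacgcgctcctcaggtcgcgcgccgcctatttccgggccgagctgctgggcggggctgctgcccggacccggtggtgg
The box occurred 1 time in the P2rx7 promoter, starting 10 bases after the transcript start, and was not found in the P2rx4 window. It was present in 28.3% of 32817 RefSeq promoters of the same length. The 2 promoters differ in CpG content, with 8 CpG dinucleotides in P2rx7 and 18 in P2rx4. The median promoter has 7, and both counts lie between the quartiles of 3 and 20. The interferon-stimulated response element (in 3.43% of promoters) and the TATA box TATAAA (in 13.6%), searched on both strands, were in neither window. None of these motifs overlaps another in these windows. Spi1, which encodes PU.1, read 10.34 in DMEM against 10.30 in DMEM/F12.

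P2ry6 showed the largest difference among the 8 genes. It encodes the UDP receptor that triggers phagocytosis in microglia, and it read 6.13 in DMEM against 5.76 in DMEM/F12 on the log2 scale, which differ by -0.37 (1.29-fold lower). A difference at least as large was found for 10% of all genes. Its neighbour on chromosome 7, P2ry2, encodes a receptor for ATP and UTP that senses nucleotides from dying cells. P2ry2 read 7.36 in DMEM against 7.21 in DMEM/F12, which differ by -0.15 (1.11-fold lower), and 50.2% of all genes differed by at least as much. The 2 neighbours thus had the same direction, and that of P2ry2 was no larger than is usual for these arrays.

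The ADP and UDP-glucose receptors lie together on chromosome 3 inside the span of Med12l, and they differed in whether they were measured above background at all. P2ry13, an ADP receptor of microglia and other myeloid cells, read 4.87 in DMEM against 4.59 in DMEM/F12. Both values were above background, but not above the 99th percentile of the same smell, pheromone and taste receptor clusters. The difference of P2ry13 was -0.28 (1.21-fold lower), a size that 20.1% of all genes reached. P2ry12, the ADP receptor by which ramified microglia extend their processes toward injury and a defining marker of microglia in the healthy brain, had 2.79 on both arrays and was below background. P2ry14, the receptor for UDP-glucose and related UDP-sugars, read 2.54 in DMEM against 2.43 in DMEM/F12, also below background, so its difference of -0.11 has no order that the arrays can support. The cluster of the host gene Med12l was below background too, with 3.35 in DMEM against 3.64 in DMEM/F12.

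P2ry13 and P2ry12 are next to each other, and their promoters are set side by side. They lie at chr3:59210833-59211132 and chr3:59262936-59263235 (GRCm38.p6, minus strand for both, written 5′ to 3′), with the PU.1 box in capitals.
P2ry13: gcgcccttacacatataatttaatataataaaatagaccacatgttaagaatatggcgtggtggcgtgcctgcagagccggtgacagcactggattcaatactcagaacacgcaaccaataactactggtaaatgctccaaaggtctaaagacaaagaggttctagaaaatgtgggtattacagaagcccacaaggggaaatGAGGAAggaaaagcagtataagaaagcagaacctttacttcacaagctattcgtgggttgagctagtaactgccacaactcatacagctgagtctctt
P2ry12: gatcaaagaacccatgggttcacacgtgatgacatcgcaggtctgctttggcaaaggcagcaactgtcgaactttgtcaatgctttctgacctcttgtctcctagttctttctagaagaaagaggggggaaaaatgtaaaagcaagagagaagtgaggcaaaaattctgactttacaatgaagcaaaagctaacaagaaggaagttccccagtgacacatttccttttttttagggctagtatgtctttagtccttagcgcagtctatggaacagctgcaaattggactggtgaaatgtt
The P2ry13 window held 1 PU.1 box, starting 48 bases before the transcript start, and the P2ry12 window held none of the 3 motifs. Both windows have a GC content of 42.3%, below the median promoter with 52.7%, and 6 and 4 CpG dinucleotides. Of the 7 measured receptor and ectonucleotidase genes with a promoter entry, P2rx7, P2ry13 and P2ry14 held the box and P2rx4, P2ry2, P2ry12 and Entpd1 did not. Only the window at the outermost start of each gene was searched. The promoter entries give 2 starts for P2rx7, P2ry2 and Entpd1 and 4 for P2ry14. The share over RefSeq promoters of the same length was 28.3%. These are matches of letters, not measured binding sites, and any part of the box in the array values was not tested.

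**Figure D2:**
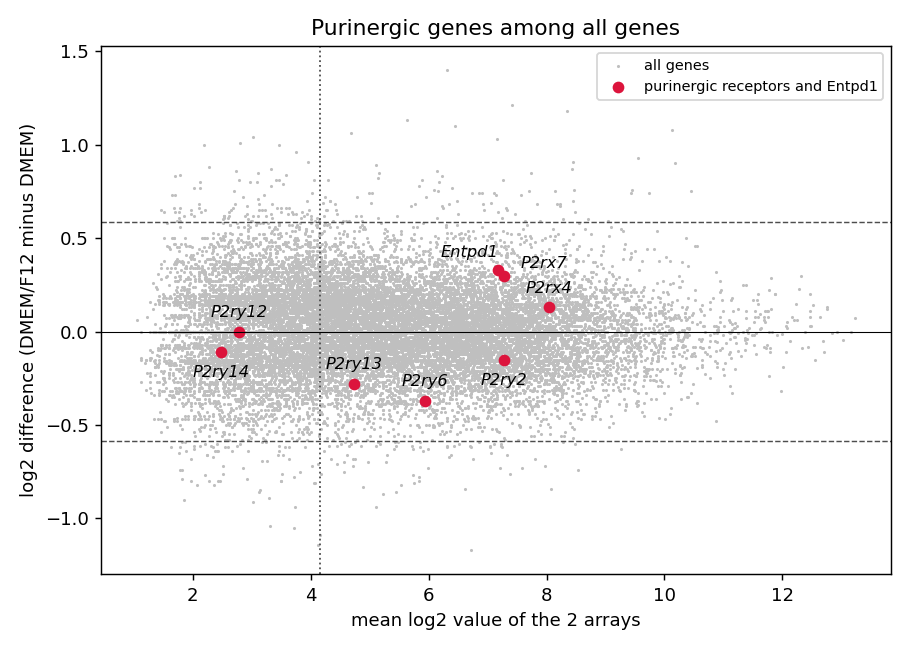
Difference on the log2 scale between the DMEM/F12 and the DMEM array (y axis) for 19938 genes (gray dots), plotted by their average log2 value (x axis), with the 8 purinergic genes in red. Dashed lines mark 1.5-fold and the dotted line marks background. All 8 lie between the dashed lines, and P2ry12 and P2ry14 lie left of the dotted line.

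Entpd1, the only ectonucleotidase among the 10 genes, read 7.02 in DMEM against 7.35 in DMEM/F12. The difference of 0.33 (1.26-fold higher) was reached or passed in size by 13.7% of all genes. The other enzymes listed with it, not all of which act at the cell surface, did not share its direction as a group. Of the 13 listed ectonucleotidases, nucleotide pyrophosphatases and relatives, 11 were measured and 6 were above background, of which 3 were higher and 3 lower, with a median difference over the 6 of 0.00. Among these 6, Entpd5, a nucleoside diphosphatase of the secretory pathway, had the largest difference (5.62 in DMEM against 5.30 in DMEM/F12, -0.32), followed by the intracellular Entpd7 (0.16). Alpl, the tissue-nonspecific alkaline phosphatase, which also dephosphorylates extracellular nucleotides, had 9.46 and 9.48. Entpd3 differed by 0.06, Entpd6 by -0.09 and Entpd4 by -0.02.

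Nt5e, which converts AMP to adenosine in the step after Entpd1, was below background on both arrays. It read 3.30 in DMEM against 3.93 in DMEM/F12, and Entpd2, an ATPase of the cell surface, had 3.53 and 4.14. Their nominal differences of 0.63 and 0.61 exceed 1.5-fold, but all 4 values lie below background and their order is not supported by the arrays. Downstream, adenosine deaminase was lower: Ada read 6.30 in DMEM against 5.67 in DMEM/F12, both above background, and this difference of -0.63 (1.55-fold lower) is one that 1.17% of all genes reached. The other genes of adenosine removal and nucleoside transport lay closer. With Ada counted, 8 were measured, of which 7 were lower and 1 was higher, where 45.5% of all genes were lower. The median difference of the 8 was -0.17. Of the 6 above background, again with Ada, 5 were lower. Besides Ada these included the equilibrative transporter Slc29a2 (-0.27) and the purine nucleoside phosphorylase Pnp (-0.22). Adk, the adenosine kinase, and the transporter Slc29a1 differed by -0.02 and 0.01.

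**Figure D3:**
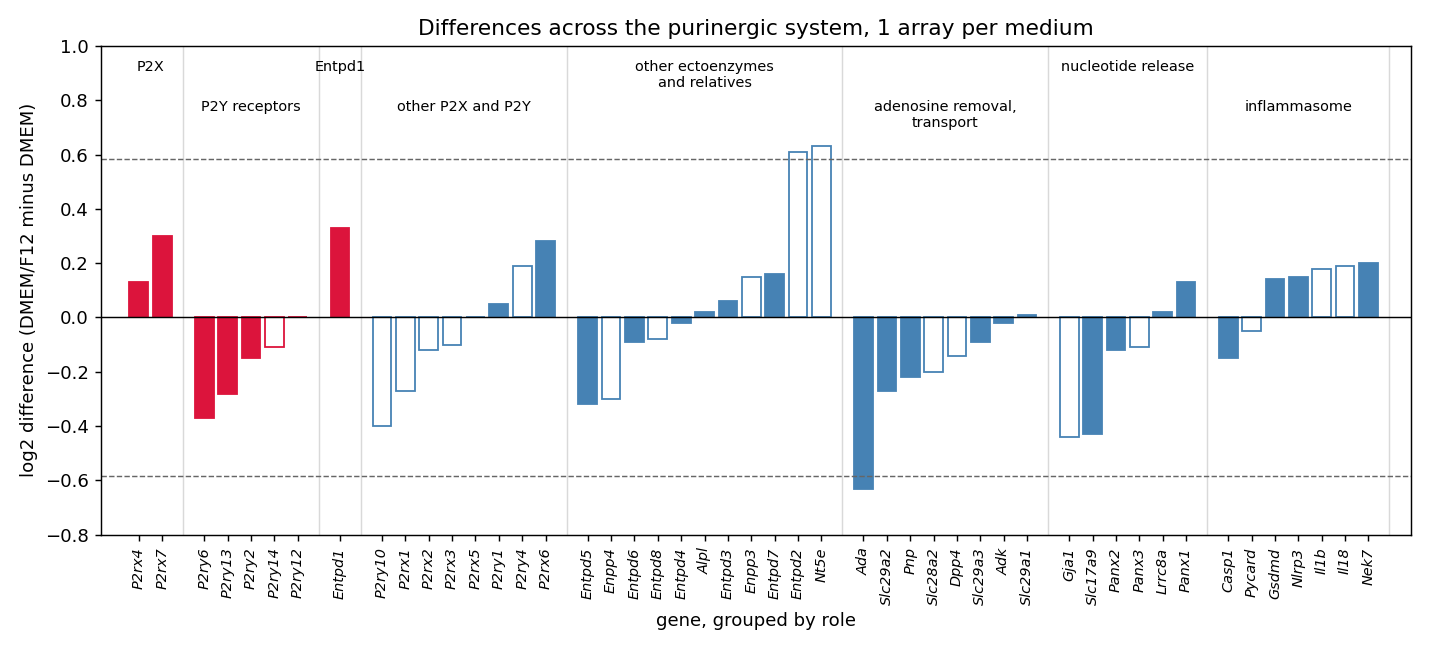
Log2 difference, as DMEM/F12 minus DMEM (y axis), for genes of the purinergic system (x axis), grouped by role, with the receptors and Entpd1 described above in red and the other genes in blue. Filled bars are genes above background on at least 1 array, open bars are genes below it on both, and dashed lines mark 1.5-fold. Ada is the only filled bar past a dashed line.

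The remaining P2X and P2Y receptors did not repeat the opposite directions of the P2X and P2Y genes described above. Of 8 measured, P2ry1, P2rx5 and P2rx6 were above background. P2ry1, a further ADP receptor, read 6.42 in DMEM against 6.47 in DMEM/F12 (0.05), unlike the lower values of P2ry2, P2ry6 and P2ry13. P2rx6 read 4.40 and 4.68 (0.28) and P2rx5 had 4.53 on both arrays, all close to background (4.15 for DMEM, 4.17 for DMEM/F12). The other 5, including P2rx1, P2ry4 and P2ry10, were below background. Over the 33 measured genes of these lists other than the 8, 12 were higher and 20 lower, with a median difference of -0.09, and of the 19 above background 8 were higher and 10 lower (median -0.02).

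On the release side, Slc17a9, the vesicular nucleotide transporter that loads ATP into vesicles, read 6.13 in DMEM against 5.70 in DMEM/F12 (-0.43, a size that 6.19% of all genes reached). The ATP-permeable channel gene Panx1 was at 5.95 and 6.08 (0.13), Panx2 at 6.13 and 6.01 (-0.12), and Lrrc8a, a volume-regulated anion channel subunit, at 7.21 and 7.23. Gja1 and Panx3 were below background. These 6 genes therefore showed no common direction, with 2 higher and 4 lower.

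The inflammasome genes that act after P2rx7 showed small differences. Of 7 measured, 5 were higher and 2 lower, with a median difference of 0.15 and a range of -0.15 to 0.20. Of the 4 above background, 3 were higher and 1 lower, where 47.2% of all genes were higher. Nek7, which links potassium efflux to the inflammasome, had the largest difference (8.02 and 8.22, 0.20), a size that 34.5% of all genes reached. The sensor Nlrp3 had 5.14 and 5.29 (0.15), Gsdmd, the pore-forming gasdermin, 5.43 and 5.57 (0.14), and the protease Casp1 5.36 and 5.21 (-0.15). The cytokine genes Il1b and Il18 and the adaptor gene Pycard were below background on both arrays.

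The label of the cells was checked against markers, since P2ry12 and P2ry13 are themselves used to identify microglia. Of 10 genes of the macrophage lineage, 9 were above background, among them Csf1r (8.79 and 8.47), Itgam (7.79 and 7.80) and Tyrobp (11.13 and 11.17), while Aif1, which encodes IBA1, was below it with 3.53 and 3.14. Of those 9, 6 were higher and 3 lower in DMEM/F12, with a median difference of 0.04. The largest differences in that list were those of the Fc receptor gene Fcgr1 (6.70 and 6.23, -0.47) and of Trem2, a lipid-sensing receptor (9.23 and 9.63, 0.40). Of 8 measured genes of microglial identity, 4 were above background: Tmem119, Cx3cr1, Sall1 and Olfml3. Siglech, Fcrls, Gpr34 and Slc2a5 were below it, as was P2ry12. All 8 had lower values in DMEM/F12, beside 45.5% of all genes. Their median difference was -0.25, or -0.24 over the 4 above background. The order of the 4 below it is not supported by the arrays. Tmem119 had the largest difference (6.71 and 6.05, -0.66), followed among the 4 above background by Olfml3 (5.66 and 5.26, -0.40). Cx3cr1 differed by -0.08, a size that 71.2% of all genes reached, and Sall1 (-0.01) by no more than the rounding of the values. The linear values of all 8 identity genes summed to 270.3 in DMEM and 209.6 in DMEM/F12. This sum includes the 4 genes below background. Tmem119 had the highest value on each array as well as the largest difference, so the sum does not show a change shared by all 8. Tmem119 and Olfml3 thus had lower values in DMEM/F12, as had P2ry13, P2ry6 and P2ry2. Any link between the markers and the receptor differences was not tested. In a bulk sample, fewer cells with a transcript and less of it per cell cannot be told apart.

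Markers of other brain cells were mostly near background. With differences in parentheses, those of astrocytes were above it for 1 of 6 genes (Slc1a2, 0.17), those of neurons for 2 of 6 (Rbfox3, 0.16, and Gad1, 0.18), those of oligodendrocytes for 3 of 4 (Mbp, -0.04, Mog, 0.17, and, in DMEM alone, Mobp, -0.06) and those of endothelial cells for 2 of 5 (Cldn5, 0.12, and Flt1, 0.02). Gfap, Aqp4, Snap25, Stmn2, Pecam1 and Cdh5 were below background on both arrays. The linear sums were 82.1 and 85.8 for astrocytes, 99.4 and 103.1 for neurons, 85.1 and 87.5 for oligodendrocytes and 495.8 and 501.9 for endothelial cells, in DMEM and DMEM/F12. Flt1, with 8.71 and 8.73, made up most of the last sum.

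The directions of the 6 purinergic genes above background were the same under each scaling tried. With each array centred on its median, with quantile normalization and with a loess curve subtracted, P2rx7 differed by 0.28 to 0.31, P2rx4 by 0.11 to 0.15 and Entpd1 by 0.31 to 0.34. Under the same 3 settings P2ry6 differed by -0.39 to -0.36, P2ry13 by -0.30 in each and P2ry2 by -0.17 to -0.14. P2ry12 lay between -0.02 and 0.00. Both arrays entered these settings whole, so the ranges describe the processing and not the error between cultures.

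**Figure D4:**
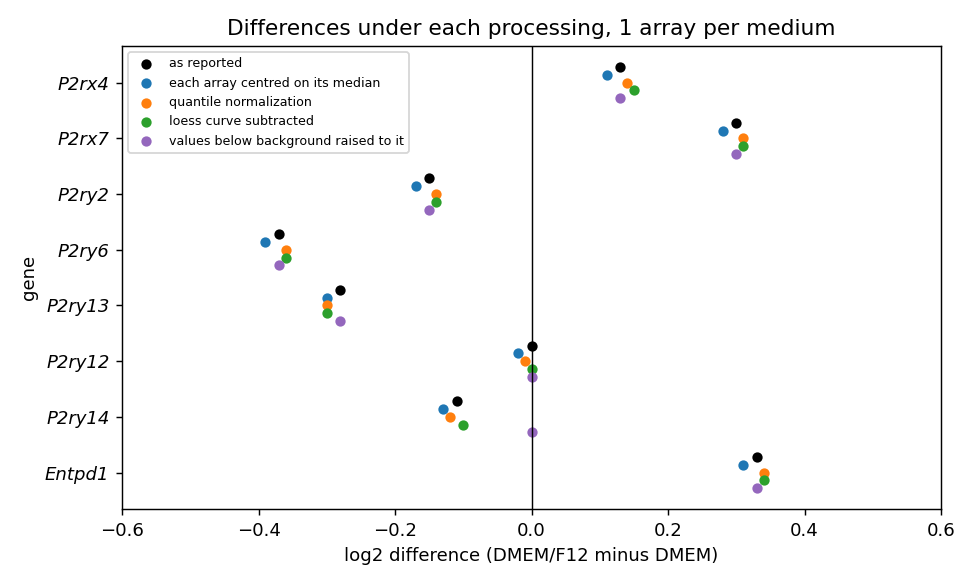
Log2 difference, as DMEM/F12 minus DMEM (x axis), for the purinergic genes (y axis) as reported and under 4 other ways of processing (coloured dots). P2rx4, P2rx7 and Entpd1 stay right of 0 and P2ry2, P2ry6 and P2ry13 left of it, while P2ry14 lies at 0.00 when values below background are raised to it.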

How the data were processed

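BV2 cells in DMEM and in DMEM/F12 were measured on 1 Affymetrix Mouse Gene 1.0 ST array each. For 28944 transcript clusters the authors deposited log2 values with 2 decimals. The methods and the submitters' processing notes name Affymetrix Expression Console and Transcriptome Analysis Console. Not given in the sources used here are their versions, the build, the summarization and whether the arrays were normalized to each other. The lower and upper quartiles were 3.30 and 6.67 for DMEM, 3.31 and 6.66 for DMEM/F12. Rounding can move a difference by up to 0.01.

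Groups follow the treatment in the labels. Symbols came from the platform annotation, and 21789 clusters had exactly 1 symbol. Each of the 8 measured purinergic genes had 1 cluster, and all 8 symbols were current in RefSeq (GRCm38.p6). Other genes with several clusters took the mean of their log2 values. No further scaling was applied, and with 1 array per medium no test was run and precision is limited by the number of arrays. Promoter sequences are from RefSeq (GRCm38.p6), which had entries for 7 of the 8 genes.

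The purinergic genes, the other gene lists and the thresholds were chosen with earlier results of these data known. The genes named are the 10 listed and, in each other list, the 2 above background with the largest difference and any past 1.5-fold. Others were named for their role after their values were seen. Alternatives were median centring, quantile normalization, a loess curve (span 0.3), the brightest cluster per gene, values below background raised to it (a gene below on both arrays was then set to 0), a lower threshold of 0.322 on the log2 scale and other background percentiles (90th and 99th). The gene-level steps were run on simulated arrays whose planted changes were larger than the differences reported here. This checked the code and not the precision of the arrays. Python 3.11.15, numpy 2.4.6, pandas 2.3.3, statsmodels 0.14.6 and matplotlib 3.10.9 were used.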

Additional observations from a re-analysis of the deposited data

How the results depend on the processing

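No paired analysis was possible because there is only 1 array of each medium. Shifts above 0.1 on the log2 scale, and changes of a count by over 1.5 times, were counted as moved. Of 136 values recomputed under another setting, 127 did not move. The count at 1.5-fold or more, 0 of the 8 purinergic genes, became 2 at a threshold of 0.322 on the log2 scale. The count of genes higher was 3 and that of genes lower 3 to 5 under the settings run. At the 99th percentile of the receptor clusters 5 genes were above background, without P2ry13. With values below background raised to it, the medians became -0.06 for adenosine removal and nucleoside transport, 0.00 for nucleotide release, 0.00 for the inflammasome genes and 0.00 for microglial identity, and P2ry14 became 0.00, because genes below background on both arrays were set to 0. With only genes above background, the medians became 0.17 for astrocyte, 0.17 for neuron and -0.04 for oligodendrocyte markers, which then rest on 1, 2 and 3 genes. The brightest cluster per gene could not change the purinergic genes, which have 1 cluster each. Nor could it change the other lists, except the one that holds P2rx3, which has 2 clusters. Raising values to background could not change purinergic genes above it on both arrays. Part of the values that did not move were therefore fixed in advance.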

Other observations

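The genes that couple purinergic receptors to the cell interior differed little as a group. Of 17 measured, 15 were above background, of which 7 were higher and 7 lower in DMEM/F12, with a median difference of 0.00. Plcb2, a phospholipase C of blood cells that acts after G protein-coupled receptors, had the largest difference, reading 8.61 in DMEM against 8.98 in DMEM/F12 (0.37). Stim1 and Orai1, the calcium sensor and channel of store-operated entry, were both lower, at 6.43 and 6.10 (-0.33) and at 6.38 and 6.14 (-0.24). Kcnk13, a potassium channel of surveying microglia, had 5.92 and 6.08 (0.16) and was above background where P2ry12 was not. Gnai2, the main inhibitory G protein alpha subunit of leukocytes, had 10.11 and 10.07, and Gnaq had 7.83 and 7.85.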
